A study of Mus musculus with 4 samples.

Results

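The genes described here encode the machinery that docks vesicles at a target membrane and fuses them with it. They were chosen by symbol: *Snap23*, *Snap25*, *Snap29* and *Snap47*, the numbered syntaxins (*Stx*), syntaxin-binding proteins (*Stxbp*), vesicle-associated membrane proteins (*Vamp*), synaptotagmins (*Syt*), synaptotagmin-like proteins (*Sytl*) and complexins (*Cplx*), and *Nsf* with *Napa*, *Napb* and *Napg*. Of the 22180 genes named by a probe with a single symbol on the array, 61 were members. *Syt4* had several probes, and the probe with the highest mean stood for the gene.

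Epididymal fat was taken from male C57BL/6J mice at 16 weeks of age. From the age of 5 weeks they ate standard chow (STD) or chow rich in fat and sucrose (HFHS). Each diet was given to *Mir342* (+/+) mice and to *Mir342* (-/-) mice, and each of the 4 groups was read on 1 GeneChip array, so no difference between 2 arrays has a replicate error. In *Mir342* (-/-) mice, derived from targeted *Mir342* tm1Wtsi embryonic stem cells, a PGK-puromycin-delta-tk selection cassette replaces the miRNA in every tissue, neurons and fat alike. Germline chimeras of C57BL/6N background were crossed to C57BL/6JJcl, and the (+/+) and (-/-) animals came from crosses of heterozygotes. The methods name several animals for each group, and whether an array holds their pooled RNA or that of 1 animal is not stated. The study chose *Snap25* from predicted miR-342-3p targets. By its account *Snap25* came first on the microarray among those higher in *Mir342* (-/-) mice on both diets. The rank of *Snap25* below is therefore not independent of that choice. In the values read here its genotype difference on STD chow was -0.20. The study also reported higher *Snap25* mRNA by RT-qPCR in (-/-) brain and epididymal fat on both diets. Its text describes SNAP25 protein as reduced in hypothalamus by Western blot, without naming the groups there. In its luciferase assay a *Mir342* mimic lowered the activity of a reporter with the wild-type *Snap25* 3'-UTR but not with the mutant one. The question put to these genes was whether *Snap25* moved together with its partners or by itself.

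A SNARE complex forms when a VAMP on the vesicle winds together with a syntaxin and a SNAP25-type protein on the target membrane, and this pulls the membranes together. Syntaxin-binding proteins chaperone the syntaxin, complexins hold the assembled complex, and synaptotagmins give many complexes their response to calcium. NSF, recruited by the SNAP adaptors, uses ATP to take the spent complex apart. In neurons SNAP25 works with a plasma membrane syntaxin, VAMP2 and synaptotagmin 1 in transmitter release. In adipocytes its relative SNAP23 works with syntaxin 4 and VAMP2 to insert vesicles carrying the glucose transporter GLUT4 into the plasma membrane under insulin.

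The deleted miRNA lies on chromosome 12 of the mouse, on the plus strand, inside the gene *Evl*. Its mature arms are shown because the seed, bases 2 to 8 in capitals, is the stretch by which a miRNA pairs with its target mRNAs. The sequences come from RefSeq (GRCm38.p6), where the 3p arm spans chr12:108658680-108658702 and the 5p arm chr12:108658638-108658659.
mmu-miR-342-3p: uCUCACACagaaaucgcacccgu
mmu-miR-342-5p: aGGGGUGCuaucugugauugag
Among 1679 mature mouse miRNAs in the same table, the seed of miR-342-3p was carried by 1, itself.

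Values are deposited log2 intensities, on which a difference of 1 is a factor of 2. The 1443 probes of receptors for odours, pheromones and taste, genes that fat is not known to use, served as background, and the level that 95% of their means stay under, 5.06, was taken as the floor for expression. The mean of the 4 arrays lay above it for 46 of the 61 members and for 12963 of all genes. The *Mir342* probe read 5.43 and 5.52 in the (+/+) arrays of STD and HFHS chow and 4.62 and 4.46 in the (-/-) arrays, lower in both of the latter, as the labels have it. *Evl*, the host gene, read 7.55 and 7.65 in the (+/+) arrays and 6.95 and 7.46 in the (-/-) arrays. All 6 adipocyte markers were above the floor in every array. Apart from this, 2 arrays had higher values of some mRNAs known from other cell types. Both arrays are taken up below beside the members they touch. In the HFHS *Mir342* (-/-) array these were some immunoglobulin, liver and brain neuron mRNAs, and in the STD *Mir342* (+/+) array some duct epithelium mRNAs. Whether those cells were present was not tested.

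*Snap25* stood apart from the rest of its family in a single array. The SNAP25 family supplies the SNARE helices that syntaxin and VAMP do not, with SNAP25 the form of neurons and endocrine cells, SNAP23 the form of most other tissues, SNAP29 acting at inner membranes and autophagosomes, and SNAP47 a widely expressed relative. On STD chow *Snap25* read 5.11 in the (+/+) array and 4.91 in the (-/-) array, and on HFHS chow 5.27 in the (+/+) array and 6.85 in the (-/-) array. Its values in the other 3 arrays lay at or close to the floor, and 1 of them, STD *Mir342* (-/-), was under it. The log2 difference of *Mir342* (-/-) minus *Mir342* (+/+) was therefore 1.58 on HFHS chow, a 3.0-fold higher value. On STD chow it was -0.20 as measured, and at least 1.03-fold lower with the floor as bound. HFHS minus STD gave 0.16 in *Mir342* (+/+). In *Mir342* (-/-) the diet difference was 1.94, and since the STD value was under the floor, it is given as at least 3.47-fold. The genotype difference thus lay 1.78 further up on HFHS than on STD chow. In bulk tissue fewer cells of a type and less RNA per cell cannot be told apart, and that holds for each value here.

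The relatives of *Snap25* did not share this pattern. *Snap23* read 8.19, 7.77, 8.35 and 8.13 in an order used for every gene from here on: first (+/+) and (-/-) on STD chow, then (+/+) and (-/-) on HFHS chow. Its lowest value was in STD *Mir342* (-/-), and on HFHS chow it was -0.22 in *Mir342* (-/-) minus *Mir342* (+/+), the sign opposite to that of *Snap25*. *Snap29* read 6.95, 6.67, 7.10 and 6.95, again lowest in STD *Mir342* (-/-). *Snap47* read 6.97, 7.13, 7.30 and 7.29. All 4 family members were higher on HFHS than on STD chow within each genotype, by 0.15 to 0.33 in *Mir342* (+/+). In *Mir342* (-/-) the 3 relatives were higher by 0.16 (*Snap47*), 0.28 (*Snap29*) and 0.36 (*Snap23*). Of all genes above the floor 52.6% were higher on HFHS chow in *Mir342* (+/+) and 58% in *Mir342* (-/-).

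**Figure D1:**
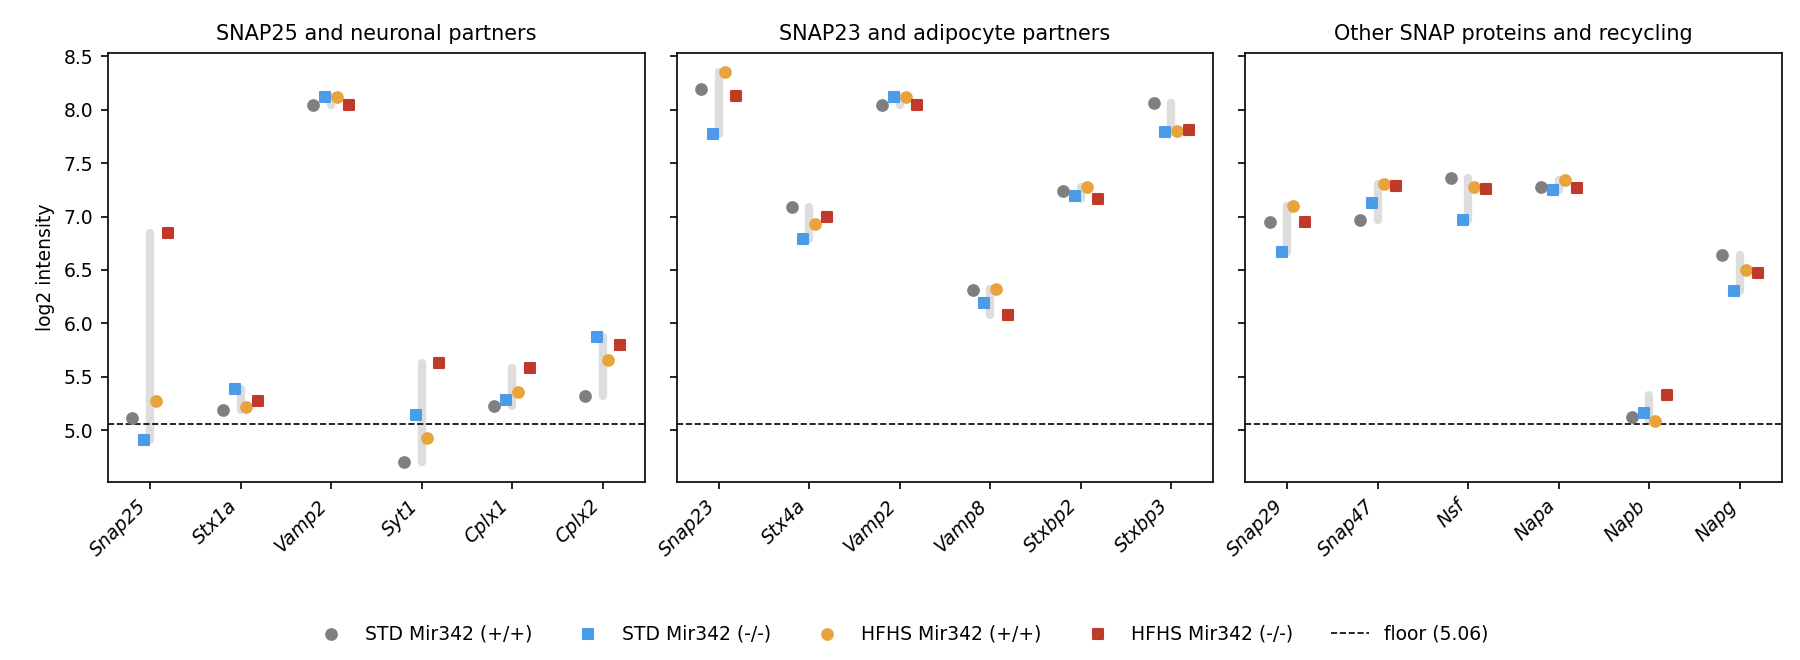
Log2 intensity (vertical axis) of each gene in the 4 arrays, 1 point per array, for *Snap25* and its neuronal partners, *Snap23* and its adipocyte partners, and the other SNAP proteins with NSF and its adaptors. Grey bars span the 4 arrays and the dashed line is the floor at 5.06. *Snap25* reads 6.85 in HFHS *Mir342* (-/-) and 4.91 to 5.27 elsewhere, while *Vamp2* stays between 8.04 and 8.12.

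Of the neuronal partners measured, *Syt1* came closest to *Snap25* in its genotype difference on HFHS chow. *Syt1*, the fast calcium sensor of synaptic vesicles, read 4.70, 5.14, 4.93 and 5.63. Both (+/+) arrays were under the floor, so its genotype difference of 0.70 on HFHS chow is given as at least 1.48-fold. On STD chow too it was higher in *Mir342* (-/-), by 0.45 as measured, but only at least 1.06-fold with the floor as bound. *Stx1a*, the plasma membrane syntaxin of neurons, read 5.19, 5.39, 5.22 and 5.27, with the highest value in STD *Mir342* (-/-). *Vamp2*, the vesicle SNARE that neurons and adipocytes share, read 8.04, 8.12, 8.12 and 8.04, the narrowest span of any member (0.08). It was the same in the array where *Snap25* was high as in STD *Mir342* (+/+). *Cplx1*, a complexin of the synapse, read 5.23, 5.28, 5.36 and 5.58, and its highest value fell in the same array as that of *Snap25*, by 0.21 over the next. *Cplx2* read 5.32, 5.87, 5.66 and 5.80, with the STD *Mir342* (+/+) array low and the rest between 5.66 and 5.87.

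Across the whole set, *Snap25* was the only member whose HFHS *Mir342* (-/-) value exceeded every other array by at least 1.5-fold, 1 of 61, against 34 of all 22180 genes (0.153%). The HFHS *Mir342* (-/-) array held the highest value for 15 members (24.6%), against 19.9% of all genes. By size of the genotype difference on HFHS chow *Snap25* ranked 6 among the 12963 genes above the floor, and by the diet difference in *Mir342* (-/-) it ranked 7. Over the 4 arrays its values spanned 1.94, and those of the other members above the floor 0.08 to 0.93, with *Syt1* the widest. Leaving *Snap25* out, the median member difference for genotype on HFHS chow was 0.01 over 45 members, the same as with it.

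Other genes were higher in that array to a similar extent. Several of them are known from the brain, mostly genes with means not above the floor. In 11 genes, *Snap25* among them and 6 with means above the floor, that array exceeded each other one by at least 2-fold as measured. Of the 5 with means not above it, *Gabra6* and *Ipw* stayed under the floor even there and *Zic1* only reached it, so that these excesses lie between background levels. *Vsnl1*, a neuronal calcium sensor, read 4.44, 4.24, 4.60 and 6.08. *Cdr1*, best known in the brain, read 4.83, 3.63, 3.81 and 6.52. *Zic1*, a transcription factor of cerebellar granule cells, read 3.83, 3.94, 3.90 and 5.06. These 3 read under the floor in each of the other arrays. *Gabra6*, the GABA receptor subunit of cerebellar granule cells, read 2.62, 2.56, 2.67 and 3.73. *Ipw*, an RNA from the imprinted Prader-Willi locus, read 3.11, 3.79, 3.63 and 4.94. *Gm26504*, outside the naming rule and chosen after its values were seen, has *Snord116* of that same locus among its synonyms and read 4.61, 4.90, 5.40 and 8.08. The remaining genes are of another kind: *Ighg3*, an immunoglobulin constant region (4.47, 4.88, 4.30 and 8.65), *Cxcl13*, a B cell chemokine (7.39, 7.09, 6.58 and 9.02), *Alb*, liver albumin (5.82, 6.09, 6.06 and 7.38), and *Orm3*, an acute phase protein (5.11, 5.81, 6.81 and 7.84).

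**Figure D2:**
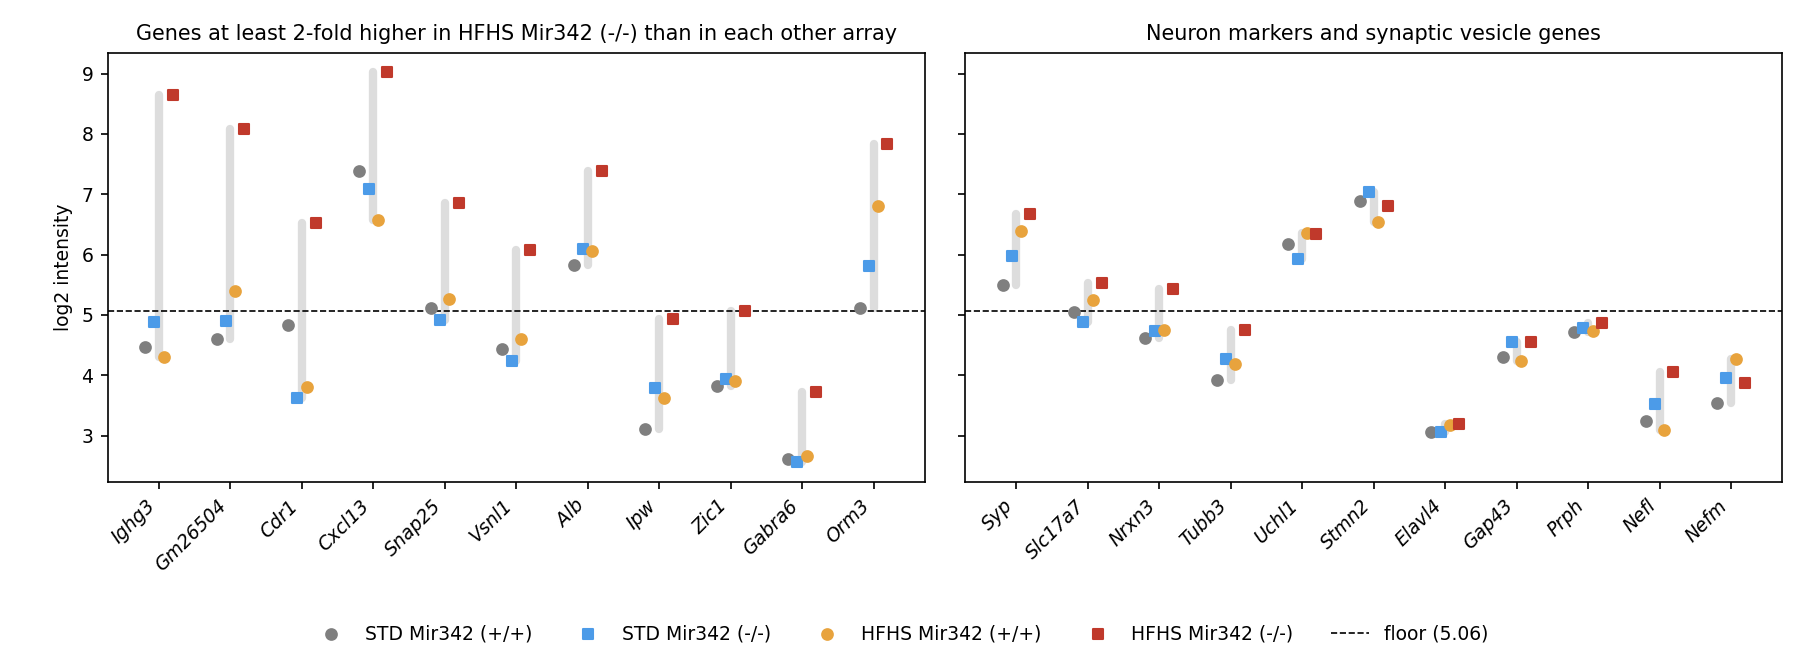
Log2 intensity (vertical axis) in the 4 arrays of the 11 genes whose HFHS *Mir342* (-/-) value exceeds each other array by at least 2-fold (left), and of 3 synaptic vesicle genes (*Syp*, *Slc17a7* and *Nrxn3*) with most of the neuron markers (right). Grey bars span the arrays and the dashed line is the floor. *Snap25* lies among brain, B cell and liver genes on the left, while on the right *Tubb3* and *Nefl* are highest in that array but under the floor, and *Stmn2*, above the floor, is highest in STD *Mir342* (-/-).

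Lists of markers were set beside *Snap25*. For comparison, 19.9% of all genes, whatever their level, were highest in HFHS *Mir342* (-/-). Of 10 general and peripheral neuron markers 6 were highest in HFHS *Mir342* (-/-), none by 1.5-fold, and 3 had means above the floor. Their summed linear level was 337, 357, 334 and 376 in the 4 arrays. *Tubb3*, neuronal tubulin, read 3.93, 4.27, 4.19 and 4.75, and *Nefl*, a neurofilament, 3.24, 3.52, 3.10 and 4.06, both below the floor in every array. *Dbh*, which marks sympathetic axons, read 4.42, 4.53, 4.46 and 4.54. Of 5 neuroendocrine markers on the array 3 were highest in HFHS *Mir342* (-/-), with sums of 108, 124, 117 and 139, and of 3 Schwann cell markers 2 were, with sums of 123, 135, 139 and 143. Lists of brain genes were added after the values were seen. Of 25 brain neuron genes 20 were highest in HFHS *Mir342* (-/-), with sums of 930, 935, 1030 and 1220. Of 28 cerebellar genes 21 were, with sums of 861, 822, 843 and 1030. Only 11 of the 25 and 8 of the 28 had means above the floor, so most of these ranks lie near background. *Vsnl1*, *Zic1* and *Gabra6*, named above because they were high in that array, are counted again in these lists. Of 13 forebrain and hypothalamic genes 1 was highest there, and of 14 glial genes 6. B and plasma cell markers summed to 158, 169, 165 and 611 and hepatocyte markers to 122, 142, 128 and 252, and 1 gene carried most of each excess, *Ighg3* and *Alb*. Of the other B and plasma cell markers, *Jchain* exceeded the next array by 0.63, *Cd79a* and *Ms4a1* by 0.37 each, and *Mzb1* was not highest there, and of the other hepatocyte markers *Ttr* did so by 0.43 and *Apoa1* by 0.07. The part that any of these cell types plays in the *Snap25* value was not tested, and with a single array in the group it cannot be told apart from genotype and diet.

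The adipocyte set, around *Snap23*, showed small differences. *Stx4a*, the plasma membrane syntaxin of GLUT4 vesicle fusion, read 7.09, 6.79, 6.93 and 7.0, lowest in STD *Mir342* (-/-). *Stxbp3*, the syntaxin-binding protein that pairs with syntaxin 4, read 8.06, 7.79, 7.80 and 7.81, with the STD *Mir342* (+/+) array 0.25 above the rest. *Stxbp2*, a syntaxin-binding protein of secretory and immune cells, read 7.24, 7.19, 7.28 and 7.16, and *Vamp8*, a VAMP of endosomes and granules, 6.31, 6.19, 6.32 and 6.08. No gene of this set differed by 1.5-fold in any of the 4 comparisons. *Slc2a4*, which encodes their cargo GLUT4, read 7.14, 7.40, 7.79 and 7.96. HFHS minus STD was 0.65 in *Mir342* (+/+) and 0.56 in *Mir342* (-/-). Of 14 GLUT4 vesicle genes on the array, *Slc2a4* was 1.5-fold higher and *Tbc1d4*, a Rab GTPase-activating protein under insulin control, 1.5-fold lower on HFHS chow in *Mir342* (+/+), and none passed in the other comparisons.

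On STD chow the syntaxins of the Golgi, endosomes and endoplasmic reticulum were lower in *Mir342* (-/-) than in *Mir342* (+/+), 8 of 8 with a median of -0.31. *Stx12*, a syntaxin of recycling endosomes, read 6.94, 6.30, 6.91 and 6.73, and its difference of -0.64 is 1.56-fold lower. *Stx7* and *Stx8*, which work together on late endosomes, read 7.70, 7.29, 7.60 and 7.66, and 6.32, 5.89, 6.19 and 6.29. In each of these 3 the STD *Mir342* (-/-) array was the lowest. *Vamp7*, a VAMP of late endosomes and lysosomes, had the same shape with 6.72, 6.11, 6.61 and 6.53, a difference of -0.61 or 1.52-fold. *Nsf*, the ATPase of complex disassembly, read 7.36, 6.97, 7.28 and 7.26, and *Napg*, one of its adaptors, 6.64, 6.30, 6.50 and 6.47. *Napa*, the general adaptor, read 7.28, 7.25, 7.34 and 7.27 and hardly varied. *Napb*, the neuronal adaptor, read 5.12, 5.16, 5.09 and 5.33, highest in HFHS *Mir342* (-/-) by 0.16.

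Many genes outside this machinery were lower in the STD *Mir342* (-/-) array as well. That array held the lowest value for 19 of the 46 members above the floor (41.3%), against 33.6% of all genes above the floor. The 75th percentile of all its probes was 6.40, against 6.44 to 6.49 in the other arrays. Among the 29 members with means more than 1 above the floor, 23 were lower in *Mir342* (-/-) on STD chow, with a median of -0.26. Of 8508 genes that bright 66.5% were lower, with a median of -0.10. Forcing the 4 arrays to 1 distribution (quantile normalization) left 6 of the 8 inner membrane syntaxins lower, with a median of -0.19, and centring each array on its median left 8 of 8 with -0.36. On HFHS chow the same 8 syntaxins divided evenly, 4 higher and 4 lower, with a median of -0.04.

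Synaptotagmins, the calcium-binding and related C2 domain proteins of vesicles, lay the other way. All 9 with means above the floor were higher in *Mir342* (-/-) on STD chow, by 0.01 to 0.45 as measured with a median of 0.25. On HFHS chow 8 of the 9 were higher, with a median of 0.24. The 2 genotype comparisons share no array. *Syt1* and *Syt14* were under the floor in both (+/+) arrays, so their (-/-) values carried them past it. That filter thus favoured their direction. Of all 17 synaptotagmins, whatever their mean, 14 were higher on STD chow and 15 on HFHS chow, against 52.1% and 49.6% of all genes. The largest after *Syt1* on STD chow were *Syt11*, which read 5.25, 5.69, 5.36 and 5.39, and *Syt14*, which read 5.01, 5.41, 5.01 and 5.27. *Syt8* read 5.81, 6.20, 5.83 and 6.06. *Syt13* read 5.66, 5.84, 5.69 and 6.06, and *Syt2*, a fast calcium sensor like *Syt1*, 5.34, 5.45, 5.07 and 5.46. *Syt7*, a slower sensor with high calcium affinity, read 5.68, 5.69, 5.72 and 5.89. Apart from *Syt12* and *Syt15*, their means lie within 1 above the floor. Of the 4455 genes in that range 57.6% were higher in *Mir342* (-/-) on STD chow and 53.6% on HFHS chow, and of the 8508 brighter genes 33.5% and 37.9%. After centring on the array median 8 of the 9 remained higher on STD chow and 6 of the 9 on HFHS chow, and under quantile normalization 9 and 8 did.

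**Figure D3:**
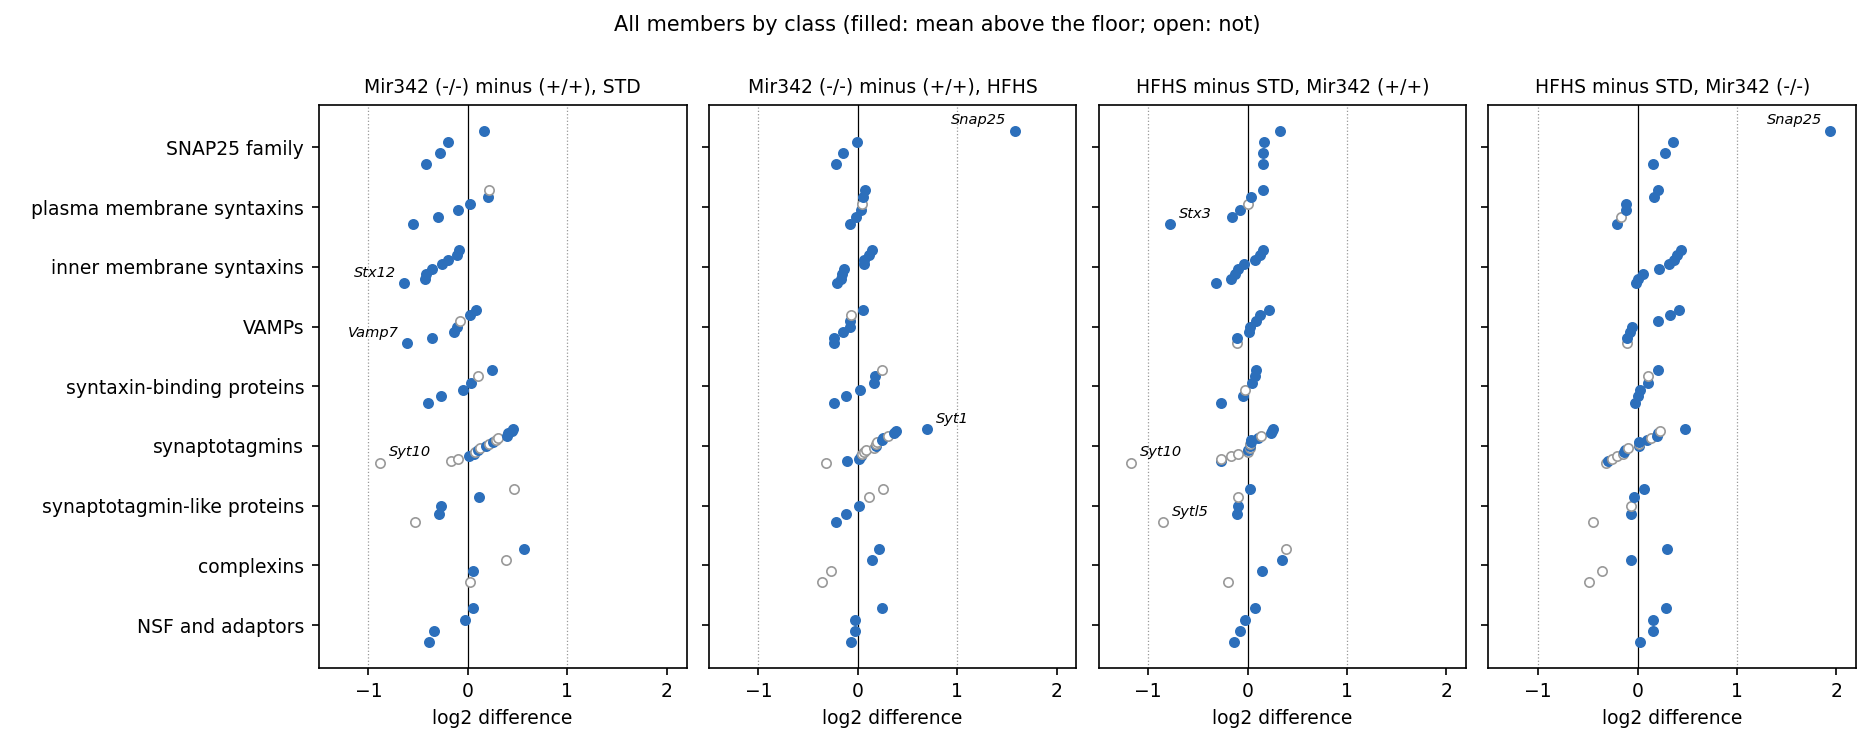
Log2 difference (horizontal axis) of every member in the 4 comparisons, by class, with 1 point per gene. Filled points have means above the floor, open points do not, dotted lines mark 2-fold, and genes at least 1.5-fold apart as measured are named. *Snap25* is the only member past 2-fold for genotype on HFHS chow and for diet in *Mir342* (-/-), the inner membrane syntaxins all lie left of 0 for genotype on STD chow, and *Stx3*, *Syt10* and *Sytl5* lie to the left for diet in *Mir342* (+/+).

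Other members above the floor differed by less than 1.5-fold in every comparison, among them *Stx2*, *Stx11*, *Vamp1*, *Vamp3*, *Vamp5*, *Stxbp4*, *Stxbp5*, *Stxbp6*, *Sytl1*, *Sytl2* and *Sytl4*. The 15 members not above the floor were *Stx19*, *Vamp4*, *Stxbp5l*, *Syt3*, *Syt4*, *Syt5*, *Syt6*, *Syt9*, *Syt10*, *Syt16*, *Syt17*, *Sytl3*, *Sytl5*, *Cplx3* and *Cplx4*. Of all 61, 42 were above the floor in every array, 9 in some and 10 in none. *Syt4*, an inhibitory relative of *Syt1*, read 4.13, 4.43, 4.15 and 4.33, while another probe of the gene read 3.64, 3.84, 3.78 and 4.58. The latter was highest in HFHS *Mir342* (-/-) and the former was not, and both lie under the floor.

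*Stx3*, *Syt10* and *Sytl5* were highest in the STD *Mir342* (+/+) array, together with genes of a duct epithelium. *Stx3*, the syntaxin of the apical membrane of epithelia, read 6.96, 6.41, 6.17 and 6.20. Its difference of -0.78 for HFHS minus STD in *Mir342* (+/+), 1.72-fold lower, was the largest of that comparison among members above the floor. *Syt10* read 5.79, 4.91, 4.62 and 4.70, above the floor in the STD *Mir342* (+/+) array alone, so it was at least 1.66-fold lower in each of the arrays compared with it. *Syt10* was the only member at least 1.5-fold above the other arrays there, 1 of 61, against 368 of all genes (1.66%). *Sytl5*, a Rab27 effector, read 4.15, 3.62, 3.30 and 3.55, all under the floor. *Cadps2*, a priming factor for dense-core vesicles outside the member set, had the same shape with 5.69, 5.03, 5.06 and 5.13.

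Of 20 duct epithelial genes, a list added after the values were seen, 15 were highest in STD *Mir342* (+/+), against 27.5% of all genes. By at least 1.5-fold 9 were, against 1.66%. The keratins *Krt7* and *Krt19* were lowest there, with 5.48, 5.77, 5.79 and 6.08, and 5.25, 5.39, 5.33 and 5.42. *Plet1* read 9.32, 6.40, 6.69 and 6.06, and *Mmp7* 8.71, 5.44, 5.14 and 5.14. *Epcam*, an adhesion molecule of epithelia, read 5.37, 3.73, 3.48 and 3.76, and *Cdh1*, epithelial cadherin, 6.58, 5.34, 5.22 and 5.36. The list summed to 2260, 750, 739 and 728 on the linear scale. The 3 epididymal epithelium markers on the array summed to 115, 91.5, 64.6 and 82.3, 0 of them with a mean above the floor. Among them *Adam7* had the shape of the duct genes, with 5.72, 3.90, 3.69 and 4.02, above the floor in STD *Mir342* (+/+) alone. *Lcn8* read 5.08, 5.05, 4.70 and 5.04, and *Lcn5* 4.82, 5.44, 4.69 and 5.06. Whether duct epithelium contributed to the *Stx3* and *Syt10* values was not tested. The genotype comparison on HFHS chow and the diet comparison in *Mir342* (-/-) do not use this array, and there *Stx3* differed by 0.03 and -0.21.

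**Figure D4:**
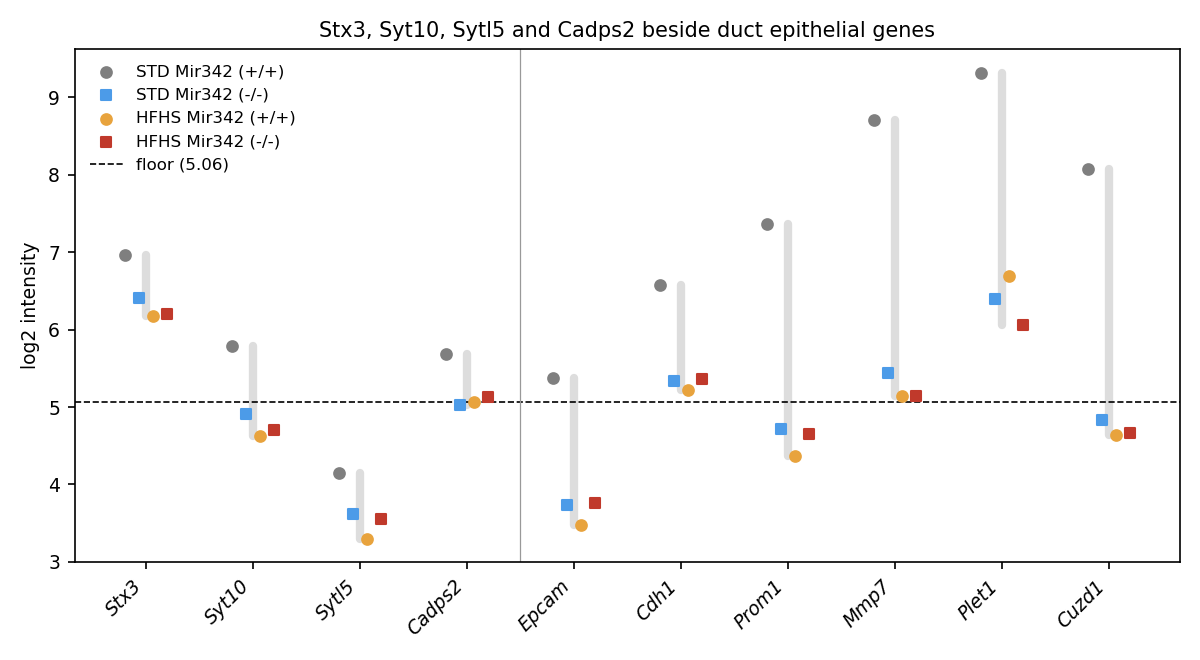
Log2 intensity (vertical axis) in the 4 arrays, 1 point each, of *Stx3*, *Syt10*, *Sytl5* and *Cadps2* (left of the line) and of 6 duct epithelial genes (right of it). Grey bars span the arrays and the dashed line is the floor. Every gene shown is highest in STD *Mir342* (+/+), *Stx3* at 6.96 against 6.17 to 6.41 and *Cuzd1* at 8.08 against 4.64 to 4.83. The duct genes shown were chosen after their values were seen.

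Counted over all comparisons, few members differed by much. For genotype on STD chow 0 of 46 members were at least 2-fold apart, where 0.224% of all genes above the floor were that much higher and 0.818% lower. At 1.5-fold 0 members were higher (background 1.79%) and 2, *Stx12* and *Vamp7*, lower (3.95%). The median over the members was -0.09, and over all genes -0.06. For genotype on HFHS chow 1 member, *Snap25*, was 2-fold higher (background 0.0849%) and 0 were lower (0.147%). At 1.5-fold 2 members, *Snap25* and *Syt1*, were higher as measured (0.447%) and 0 lower (0.849%). With the floor as its bound *Syt1* was at least 1.48-fold higher, short of that threshold. The median was 0.01, and -0.03 over all genes.

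By diet, too, few members were far apart. In *Mir342* (+/+) 0 members were 2-fold higher or lower on HFHS chow, where 1.85% of genes were higher and 1.19% lower. At 1.5-fold 0 were higher (background 6.53%) and 1, *Stx3*, was lower (4.67%). Members had a median of 0.03 and all genes of 0.02. In *Mir342* (-/-) 1 member, *Snap25*, was 2-fold higher (0.579%) and 0 were lower (0.185%). At 1.5-fold the count was again 1 higher, *Snap25* (3.12%), and 0 lower (1.31%). Here the median was 0.10 for members and 0.05 for all genes. For 1 member, *Snap25*, the genotype difference lay at least 2-fold further up on HFHS than on STD chow, against 0.91% of genes above the floor. Comparisons of genotype and of diet share arrays, so the 2 entries of *Snap25* rest on the same HFHS *Mir342* (-/-) value.

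**Figure D5:**
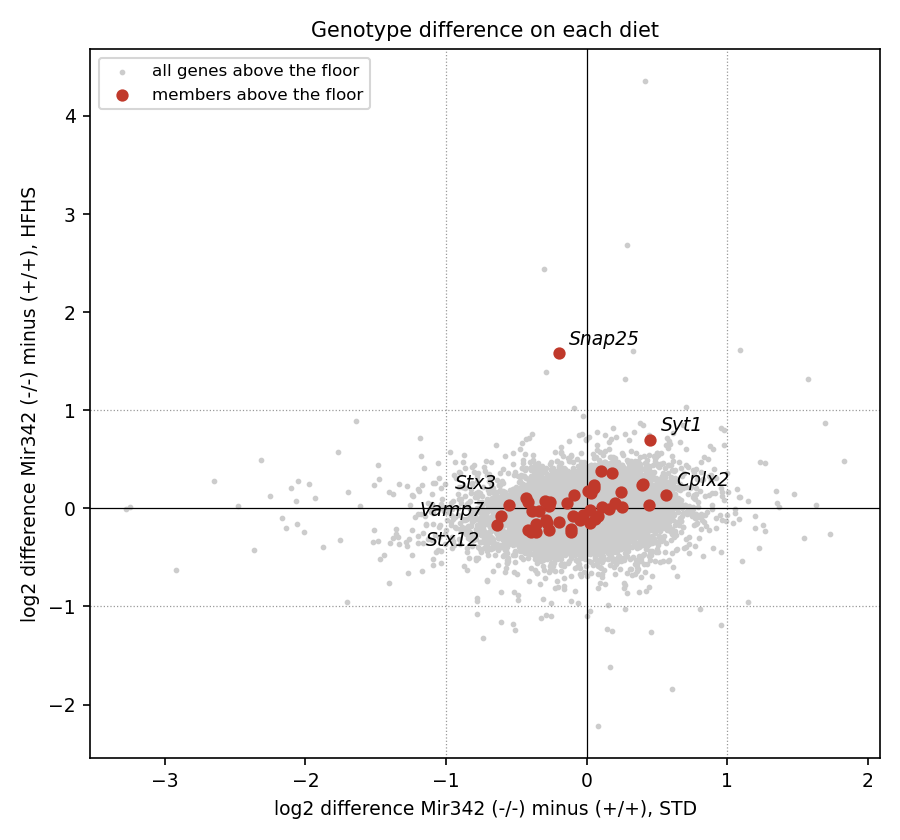
Log2 difference *Mir342* (-/-) minus *Mir342* (+/+) on STD chow (horizontal axis) and on HFHS chow (vertical axis), 1 point per gene, for the 46 members (red) and all 12963 genes above the floor (grey), with dotted lines at 2-fold. *Snap25* lies at -0.20 and 1.58, *Syt1* at 0.45 and 0.70, and the remaining members lie within the cloud of all genes.

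The only test that 4 arrays allow is an additive fit, in which limma estimated 1 genotype and 1 diet effect across all arrays and took what these do not explain as error. No member passed it for genotype after Benjamini-Hochberg adjustment over the 12963 genes, where 0% of all genes passed, and the smallest adjusted p among members was 0.576 in limma. At an unadjusted p under 0.05, 3 members were higher (*Syt1*, *Syt8* and *Syt14*) and 3 lower (*Snap23*, *Stx12* and *Stxbp5*) in *Mir342* (-/-), 6 of 46 against 8.34% of all genes. *Syt1* had the smallest limma p of these, with an effect of 0.57 ± 0.13 (SE) and an adjusted p of 0.576. For diet 0 members passed, against 1.83% of all genes, and the smallest adjusted p in limma was 0.182, for *Stx3*. At an unadjusted p under 0.05, *Snap25* and *Syt1* were higher and *Stx3* lower on HFHS chow, against 19.7% of all genes. The limma diet effect of *Snap25* was 1.05 ± 0.37 (SE, adjusted p = 0.197) and its genotype effect 0.69 ± 0.37 (SE, adjusted p = 0.613). Any part of a genotype difference that is not the same on both diets enters this fit as error. *Syt1* and *Syt14* came into the fit only through their (-/-) values, being under the floor in both (+/+) arrays. The filter thus favoured their direction for genotype.

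Genes that work beside the members on the same membranes also differed little. Of 12 SNAREs outside the symbols used here, of 9 SM proteins and tethers and of 10 exocyst subunits, all above the floor, 0 were 1.5-fold apart in any comparison. Their medians for genotype on STD chow were -0.09, -0.10 and -0.17. *Exoc5*, an exocyst subunit, read 7.91, 7.33, 7.83 and 7.53. Among 22 secretory Rabs and effectors, *Cadps2* passed 1.5-fold downwards for genotype on STD chow and for diet in *Mir342* (+/+), and *Rab3d*, a Rab of secretory granules, upwards for that diet comparison, with 6.39, 6.80, 7.17 and 7.19.

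Of 28 synaptic vesicle and active zone genes on the array, 14 had means above the floor. In HFHS *Mir342* (-/-) 14 were highest, against 19.9% of all genes. *Nrxn3*, a presynaptic adhesion molecule, read 4.62, 4.74, 4.75 and 5.43, under the floor in all arrays but HFHS *Mir342* (-/-). *Slc17a7*, a vesicular glutamate transporter, read 5.05, 4.89, 5.25 and 5.53. *Syp*, the synaptic vesicle protein synaptophysin, followed diet in both genotypes, with 5.49, 5.97, 6.39 and 6.68. It was the only gene of the 6 lists of vesicle and docking genes that rose on HFHS chow in the additive fit, with a limma effect of 0.80 ± 0.13 (SE) and an adjusted p of 0.0415. This call was lost with quantile normalization (adjusted p = 0.0998 in limma), without a floor (0.16) and with the mean of a gene's probes (0.0771), and over all alternatives the adjusted p ran from 0.0155 to 0.16. *Dnm1*, the dynamin of synaptic endocytosis, read 6.46, 6.58, 7.11 and 7.12, with an adjusted p of 0.0694 in limma. No gene of these lists passed for genotype.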

How the data were processed

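Each transcript cluster has 1 log2 value per array in the table that the authors deposited, from total RNA labelled with the WT PLUS kit. The authors' summarization and normalization are not stated in the labels or methods. No further normalization was applied in the analysis reported. A probe counted only if its annotation held 1 gene symbol, and a gene was read from its probe with the highest mean. Array values have no read depth, and their number, 1 per group, limits the precision. Genotype differences are *Mir342* (-/-) minus *Mir342* (+/+) on each diet and diet differences HFHS minus STD in each genotype. No test was made between 2 arrays. Where 1 value lay under the floor, the difference was taken from the floor as a bound. Across the 4 arrays, limma (lmFit and eBayes) fitted 1 genotype and 1 diet coefficient, with 1 residual and 5.451 prior degrees of freedom, adjusted by Benjamini-Hochberg over 12963 genes with a threshold of 0.05.

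Members, their classes and the gene lists were chosen with earlier results of these data known. Values in every array are given for the SNAP25 family, its neuronal and adipocyte partners, the recycling proteins and members at least 1.5-fold apart, and for up to 4 genes of a list in a comparison. Further genes shown as examples of a class, list or marker set were chosen after their values were seen. Alternatives were quantile normalization, centring on the array median, no floor, a floor raised by 1, values under the floor set to it, the mean of a gene's probes, a threshold of 1.5-fold, limma with a trend and robust variances, and differences minus the median of all genes. The fit was tested on simulated data. Software was R 4.3.3 with limma 3.58.1 and Python 3.11.15 with pandas 2.3.3, numpy 2.4.6 and matplotlib 3.10.9.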

Additional observations from a re-analysis of the deposited data

Results flagged for a closer look

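As measured, the genotype difference of *Snap25* had opposite signs on the 2 diets, -0.20 on STD and 1.58 on HFHS chow. That of *Syt10* did too, with -0.88 on STD and 0.08 on HFHS chow. So did the median over the 46 members above the floor, with -0.09 on STD and 0.01 on HFHS chow. For *Snap25* the STD *Mir342* (-/-) value was under the floor, and the bound on STD chow was 1.03-fold. Both HFHS values of *Syt10* were under the floor. With 1 array per group none of these differences between diets was tested.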

How the results depend on the processing

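No paired analysis was possible because each group has 1 array and no replicate numbers. The *Snap25* genotype difference on HFHS chow ran from 1.55 to 1.61 over the alternatives in which it was computed, and 0 members passed limma for either factor in each. Raising every value under the floor to 5.06 took the *Snap25* difference to -0.05 for genotype on STD chow, to 1.79 for diet in *Mir342* (-/-) and to 1.63 for the difference between diets. With the floor raised by 1, *Snap25* was no longer tested, and the counts at 2-fold became 0 for genotype on HFHS chow and 0 for diet in *Mir342* (-/-), while the member median for genotype on STD chow became -0.26. Quantile normalization moved that median to 0.01. Without a floor 1 member, *Syt10*, was 2-fold apart for diet in *Mir342* (+/+). At 1.5-fold the counts, as measured, were 2 for genotype on STD, 2 for genotype on HFHS (*Syt1* with a value under the floor) and 1 for diet in *Mir342* (+/+). Over all genes the limma diet calls were 237, and 0 with quantile normalization, 0 without a floor and 564 with the floor raised by 1. Of 400 further values of 20 named members, 384 moved by less than the median residual SD of the fit (0.0954), 16 by more and 0 were counted as reversed. Differences close to none could still change sign. For genotype on HFHS chow, *Nsf* and its adaptors went from 1 higher and 3 lower to 2 and 2 under quantile normalization. The percentages of genes lowest in STD *Mir342* (-/-), the class counts under each scaling, and the brain and duct lists were added after seeing the data.

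Every comparison rests on 2 arrays, so none was left out of one. *Snap25*, *Syt1* and *Stx1a* lie near the floor. Shared probe sequence was not examined. Protein and the cells that hold these mRNAs were not measured on the arrays.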
